A study of Mus musculus with 6 samples.

Results

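A set of 10 glutathione transferase genes was followed through the testes of 3 inbred mouse strains: Gsta3, Gsta4, Gstm1, Gstm2, Gstm5, Gstp1, Gstt1, Gsto1, Gstk1 and Mgst1. They are a list of named genes drawn up with earlier results of these data known, and every probe set that the platform annotation gives to 1 of these symbols alone was taken. That gave 16 probe sets for 10 genes, of 18193 genes with such a probe set. All 10 genes and 15 of the 16 probe sets passed the filter on dim signal that left 14477 genes for testing.

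The groups were C57BL/6, AKR/N and MRL/MpJ-+/+ males at 8 weeks of age, with 2 mice and 2 arrays per strain and no treatment. Total testis RNA was labelled with biotin and hybridised to an oligonucleotide array that reads the 3' part of transcripts. The series set testis expression of the strains against each other. Each strain is 1 inbred genotype and no germ cell or somatic fraction was separated, so the signal of a gene is that of the mixed organ.

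Glutathione transferases join the tripeptide glutathione to reactive, electrophilic molecules such as products of lipid peroxidation, which makes these easier to export. The soluble enzymes fall into classes named alpha, mu, pi, theta and omega. Kappa enzymes reside in mitochondria and peroxisomes, and microsomal transferases are membrane proteins of a separate family. In the testis, steroid-making Leydig cells, Sertoli cells and germ cells all carry members of the family, and mu class proteins are found on sperm.

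Values are probe set intensities in arbitrary units on a linear scale with a trimmed mean of 125.001 on each array. Each array had its median probe set at 28 to 30.7 units. Differences are of log2(intensity + 16) and come with limma's p-values, adjusted over 29692 probe sets and called under 0.05. The 16 added to each intensity makes the difference smaller for dim probe sets. Where 95% intervals are given, they are those of the same fit, with the spread pooled over the strains. Levels of different genes cannot be set against each other on this array, so each gene is described across strains only. AKR/N replicate 1 stood apart in some markers of neighbouring tissue, though not in all. Gpx5, an epididymal glutathione peroxidase, was at 393 units on it and at 13.7 to 42.8 units on the other 5 arrays. Fabp4, an adipocyte lipid carrier, was at 172 units against 2.09 to 49.9 units. Car3, also of the adipose list, was at 192 units against 16.5 to 64.8 units. The other tested epididymal marker, Rnase10, was at 12.5 units on that array, 4.84 on AKR/N replicate 2, 68.8 and 78 in C57BL/6, and 15.6 and 12.2 in MRL/MpJ. It was called lower in AKR/N (-1.87, adjusted p = 0.00075 by limma) and in MRL/MpJ (-1.58, 0.00222) than in C57BL/6. Only 2 of the 9 epididymal markers listed were tested. The filter on dim signal asks for at least 2 arrays, so it drops a marker that is bright on 1 array alone. Of the untested markers, Lcn5 read 1.61 to 118 units over all arrays and Lcn8 3.36 to 28.8 units, and these were not followed by array. Adipoq, another adipocyte gene, was at 174 units on AKR/N replicate 1 and at 131 to 163 units on the others. Scd1, of the same list, was at 207 units on it and at 76.7 to 192 units on the others. Without that array all 16 differences called for the 10 genes kept their sign, as they did with each other array left out. That had to be so, because the arrays of the strains compared did not overlap in any of these differences. The counts of probe sets called with 1 array left out fell for other arrays too and are given further on.

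C57BL/6 had the lowest signal for most of the 10 genes. Against C57BL/6, 7 of the 10 genes were called higher in MRL/MpJ, beside 6.06% of all genes tested that were called higher and 12.1% called in either direction. None of the 10 was called lower by limma, beside 6.08% of all genes, and 1 (Gsta3) was lower at an unadjusted p under 0.05. In AKR/N 7 of 10 were also called higher, beside 6.33% of all genes called higher and 11.8% called in either direction. None was lower by limma, beside 5.45% of all genes, nor at an unadjusted p under 0.05. The genes called in each were Gsta4, Gstm1, Gstm2, Gstp1, Gstk1 and Mgst1, with Gsto1 added in MRL/MpJ and Gsta3 in AKR/N. As the list was drawn up with such results known, these counts describe it and are no independent evidence of a direction. The median difference over the 10 genes was 0.45 in MRL/MpJ and 0.50 in AKR/N, against 0.01 over all genes tested in each comparison. Both comparisons use the same C57BL/6 mice, so the second count does not stand apart from the first. When MRL/MpJ was set against AKR/N, 2 of 10 genes were called, beside 8.70% of all genes tested. Gstm2 was higher in MRL/MpJ (3.65% of all genes were) and Gsta3 lower (5.05%), and the median over the 10 genes was -0.01, against 0.01 over all genes.

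**Figure D1:**
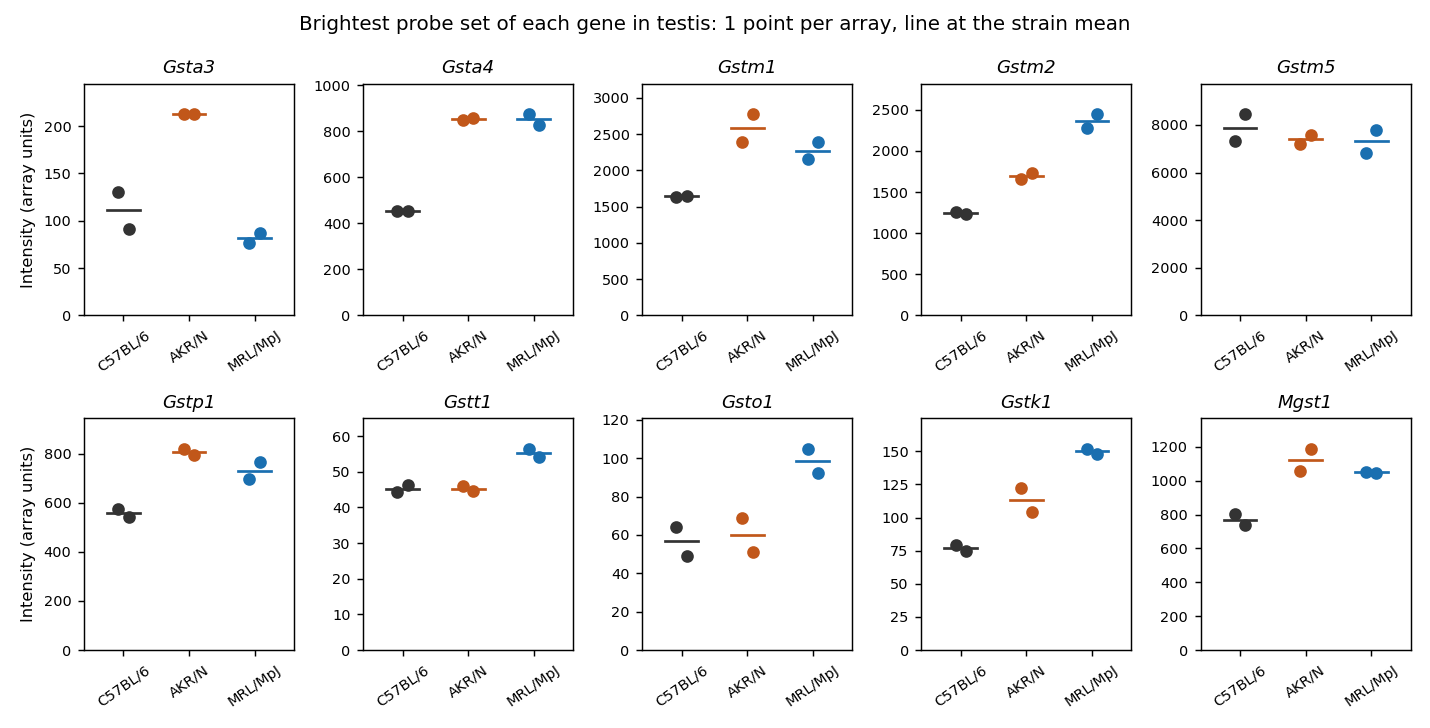
Intensity (array units, linear axis from 0) of the brightest probe set of each gene, with 1 point per array and a line at the mean of each strain; axes differ between genes. Gsta4 lies near 455 units in C57BL/6 and near 850 units in both other strains, Gsta3 is high in AKR/N alone, Gstm2 climbs from C57BL/6 through AKR/N to MRL/MpJ, and Gstm5 overlaps between all strains.

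Gstm1, Gstm2 and Gstm5 lie in 1 cluster on chromosome 3 but differed in their strain pattern, and their upstream sequences are shown for that reason. Each is the stretch of 250 bases before an annotated start, 5′ to 3′ on the gene's own strand, from RefSeq on GRCm38.p6, the C57BL/6J genome. Capitals mark matches to the antioxidant response element, the site through which the transcription factor Nrf2 acts on many genes of glutathione metabolism. Gstm1 has another annotated start a short way upstream.
Gstm1, chr3:108017819-108018068, minus strand: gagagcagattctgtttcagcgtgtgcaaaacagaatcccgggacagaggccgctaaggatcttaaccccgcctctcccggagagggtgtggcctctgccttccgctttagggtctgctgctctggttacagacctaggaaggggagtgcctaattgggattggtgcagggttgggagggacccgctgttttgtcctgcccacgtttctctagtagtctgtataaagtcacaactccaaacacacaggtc
Gstm2, chr3:107986421-107986670, minus strand: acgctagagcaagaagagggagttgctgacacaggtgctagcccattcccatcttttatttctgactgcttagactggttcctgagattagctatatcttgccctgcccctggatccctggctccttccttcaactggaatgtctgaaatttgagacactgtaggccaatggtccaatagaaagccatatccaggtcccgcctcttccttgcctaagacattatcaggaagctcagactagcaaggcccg
Gstm5, chr3:107895604-107895853, plus strand: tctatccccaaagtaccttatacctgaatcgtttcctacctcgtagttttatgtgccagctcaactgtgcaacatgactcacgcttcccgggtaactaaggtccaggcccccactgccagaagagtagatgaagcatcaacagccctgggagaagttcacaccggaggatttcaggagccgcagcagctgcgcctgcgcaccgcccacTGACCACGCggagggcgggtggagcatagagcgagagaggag

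The upstream sequences of Gsta3, the gene with the AKR/N pattern, and of Mgst1, called higher in both strains, are given because each holds a match to that element.
Gsta3, chr1:21240335-21240584, plus strand: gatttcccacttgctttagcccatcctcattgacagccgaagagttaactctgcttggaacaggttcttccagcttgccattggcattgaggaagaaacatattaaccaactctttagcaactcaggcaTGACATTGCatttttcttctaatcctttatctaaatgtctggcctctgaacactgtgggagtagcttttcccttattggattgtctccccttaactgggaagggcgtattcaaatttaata
Mgst1, chr6:138140277-138140526, plus strand: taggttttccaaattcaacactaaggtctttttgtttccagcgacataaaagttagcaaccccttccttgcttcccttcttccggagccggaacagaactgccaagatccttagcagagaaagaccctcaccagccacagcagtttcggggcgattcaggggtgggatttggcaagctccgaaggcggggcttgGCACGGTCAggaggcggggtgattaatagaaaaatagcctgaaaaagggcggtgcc

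The element was searched as TGACNNNGC on both strands of 300 bases, from 250 before to 50 after the start. With TCA in place of its free letters it would hold TGACTCA, a site of AP-1 factors. The tables held 11 windows for 9 of the genes. Matches stood in 3 of the 11 windows, beside 12.4% of all 32851 windows. They were those of Gsta3 (TGACATTGC), Gstm5 (TGACCACGC) and Mgst1 (TGACCGTGC, on the opposite strand). The window at another annotated start of Mgst1 had none. Of these 3 genes, Gstm5 was called in no comparison. The site of steroidogenic factor 1, a regulator of Leydig cell genes, was searched as CAAGGTCA. It matched none of the 11 windows, against 1.56% of all windows. A match is only a description of letters, and no binding was measured here.

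In the alpha class, Gsta4 (probe set 1416368_at) and Gsta3 had different patterns. Gsta4, an enzyme that conjugates the lipid peroxidation product hydroxynonenal, stood at 454 and 455 units in the C57BL/6 mice. It was at 850.0 and 858 units in AKR/N and at 876 and 827 units in MRL/MpJ. The C57BL/6 arrays lay below all 4 others, and the other strains overlapped. Gsta4 was 1.88 times as bright in AKR/N as in C57BL/6 (difference 0.89, SE 0.0729, adjusted p = 3.05e-05 by limma) and 1.87 times as bright in MRL/MpJ (0.88, adjusted p = 3.17e-05). MRL/MpJ differed from AKR/N by -0.01, with an interval from -0.17 to 0.16. In a bulk sample, fewer cells of a type and less RNA per cell cannot be told apart.

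Gsta3, an alpha enzyme that also acts on steroid intermediates, was high in AKR/N. Its brighter probe set, 1423436_at, read 213 units on both AKR/N arrays, 130.2 and 91.6 units in C57BL/6, and 76.7 and 86.9 units in MRL/MpJ. No AKR/N array overlapped with another strain. The signal in AKR/N was 1.92 times that in C57BL/6 (0.87, SE 0.152, adjusted p = 0.00482 by limma). MRL/MpJ had 0.385 times the AKR/N signal (-1.23, SE 0.152, adjusted p = 0.000837). MRL/MpJ and C57BL/6 were not called apart (-0.36, interval -0.70 to -0.03, adjusted p = 0.173, and -0.58 with adjusted p = 0.0427 without C57BL/6 replicate 2). The dimmer one, 1423437_at, gave 69.8 and 63.6 units in AKR/N against 30.8 and 30 units in C57BL/6 and 25.5 and 31.6 units in MRL/MpJ. Its differences of 0.83 against C57BL/6 (adjusted p = 0.0158 by limma) and of -0.89 in MRL/MpJ against AKR/N (0.0153) had the signs of the brighter one. The dimmer probe set lost its call in AKR/N against C57BL/6 with AKR/N replicate 1 (0.13) or 2 (0.0863) or C57BL/6 replicate 2 (0.0702) left out. In MRL/MpJ against AKR/N it lost its call with AKR/N replicate 1 (0.126) or 2 (0.0957) or MRL/MpJ replicate 1 (0.0985) or 2 (0.0519) left out, and without the filter on dim signal it had 0.0514 and 0.0519. The probe set of Gsta4 and the brighter one of Gsta3 kept their calls with any 1 array left out, but without the variance trend Gsta3 had adjusted p = 0.0584 in AKR/N against C57BL/6. Of the genes beside them, Tram2, a neighbour of Gsta3, had the opposite sign in AKR/N (-0.69, adjusted p = 0.0205 by limma), a call that ended with any AKR/N or C57BL/6 array left out (0.0505 to 0.144) and when its probe sets were averaged (-0.45, 0.0672). Fbxo9, beside Gsta4, was called in MRL/MpJ against AKR/N (0.42, 0.0299), and lost that call with any MRL/MpJ or AKR/N array left out (0.073 to 0.203) and when its probe sets were averaged (0.25, 0.154).

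Of the mu class, Gstm2 separated all 3 strains. This cytosolic enzyme (1416411_at) read 1255 and 1235 units in C57BL/6, 1658 and 1730.1 units in AKR/N, and 2274 and 2452 units in MRL/MpJ. No arrays of different strains overlapped. Gstm2 was 1.90 times as bright in MRL/MpJ as in C57BL/6 (0.92, SE 0.0661, adjusted p = 1.25e-05 by limma) and 1.36 times as bright in AKR/N (0.44, adjusted p = 0.00195). It was 1.39 times as bright in MRL/MpJ as in AKR/N (0.48, adjusted p = 0.00186). These calls held with each array left out. Without the variance trend, which lets each probe set borrow the spread usual at its brightness, MRL/MpJ against C57BL/6 was still called, but the differences of 0.48 and 0.44 had an adjusted p of 0.113 and 0.0851.

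Gstm1, the main mu enzyme of liver, was higher in both strains than in C57BL/6 on 3 of its 4 probe sets. The brightest, 1416416_x_at, read 1635 and 1653 units in C57BL/6, 2389 and 2781 units in AKR/N, and 2159 and 2389 units in MRL/MpJ. Both C57BL/6 arrays lay below the other 4. The difference was 0.64 in AKR/N (SE 0.0814, adjusted p = 0.000633 by limma) and 0.46 in MRL/MpJ (adjusted p = 0.00492). The probe set 1448330_at gave 0.56 in AKR/N (adjusted p = 0.00135) and 0.65 in MRL/MpJ (adjusted p = 0.000479), and 1425627_x_at gave 0.69 and 0.48 (adjusted p = 0.00232 and 0.0173). AKR/N was thus the brighter strain on 2 of these probe sets and MRL/MpJ on 1, and none was called between them. The variance trend carried the call on the brightest (adjusted p = 0.113 in MRL/MpJ and 0.0562 in AKR/N without it). In MRL/MpJ, 1425627_x_at lost its call with MRL/MpJ replicate 1 (0.058) or 2 (0.12) or C57BL/6 replicate 1 (0.0841) left out and without the trend (0.1), and in AKR/N 1448330_at lost its call without the trend (0.0697). The dim probe set 1425626_at read 68.6 to 105 units over all strains, with overlap. Its differences were 0.07 in MRL/MpJ (interval -0.35 to 0.50) and 0.21 in AKR/N (interval -0.22 to 0.63).

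Gstm5, the mu enzyme known for high expression in testis and brain, was the exception of the class. Its probe set 1416842_at read 7314 and 8465 units in C57BL/6, 7192 and 7584 units in AKR/N, and 6841 and 7807 units in MRL/MpJ. All strains overlapped. The differences were -0.11 in MRL/MpJ (interval -0.29 to 0.07) and -0.09 in AKR/N (interval -0.27 to 0.09). MRL/MpJ against AKR/N gave -0.02 (interval -0.19 to 0.16), so that none of the differences was resolved from 0 with these arrays.

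Along chromosome 3 RefSeq places Gstm5, Gstm7, Gstm6, Gstm3, Gstm2, Gstm1 and Gstm4 in this order. Gstm6 read 349 and 341 units in AKR/N against 255 and 257 in C57BL/6 and 244 and 239 in MRL/MpJ, so AKR/N was the high strain. Its difference from C57BL/6 was 0.41 (adjusted p = 0.0147 by limma). That call ended with AKR/N replicate 1 or 2 or C57BL/6 replicate 2 left out (0.0994, 0.0798 and 0.0585). MRL/MpJ against AKR/N gave -0.49 for Gstm6 (adjusted p = 0.0085 by limma), a call that ended with any AKR/N or MRL/MpJ array left out (0.0706 and 0.0627 for AKR/N replicates 1 and 2, 0.053 and 0.0656 for MRL/MpJ replicates 1 and 2). Gstm4 was higher in AKR/N by 0.59 (adjusted p = 0.0303), which ended with any AKR/N or C57BL/6 array left out (0.118 and 0.171 for AKR/N replicates 1 and 2, 0.0601 and 0.114 for C57BL/6 replicates 1 and 2), and its difference in MRL/MpJ was 0.42 (0.109). Gstm3 and Gstm7 were called in no comparison, with 0.67 and 0.27 in AKR/N and 0.28 and 0.09 in MRL/MpJ. A dimmer Gstm7 probe set, 1425946_at, had the opposite sign, at -0.60 in AKR/N and -0.73 in MRL/MpJ (adjusted p = 0.132 and 0.0694 by limma). The order of strains thus varied along the cluster, with AKR/N highest for Gstm6, MRL/MpJ highest for Gstm2 and overlapping strains for Gstm5. Mu genes are close in sequence and the probes were not matched to transcripts here, so signal shared between mu genes cannot be told from each gene's own. The next gene beyond the cluster, Ampd2, differed by 0.21 in MRL/MpJ and 0.18 in AKR/N, without a call.

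**Figure D2:**
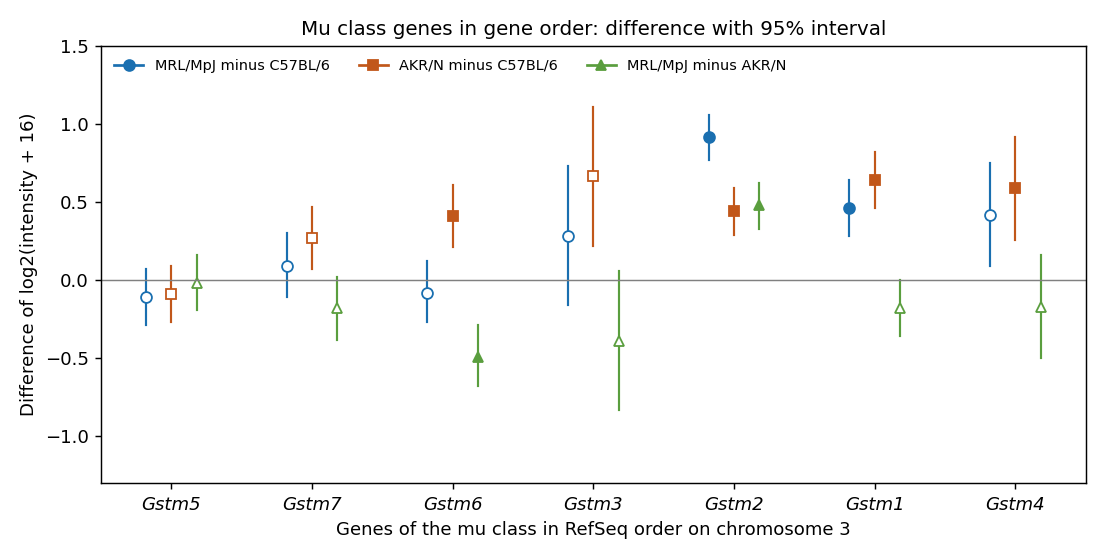
Difference of log2(intensity + 16) between strains, with its 95% interval, for the brightest tested probe set of each mu class gene in RefSeq order; filled symbols have an adjusted p under 0.05. Gstm2 is called in all 3 comparisons, Gstm6 is called where AKR/N takes part, and the 3 intervals of Gstm5 hold 0.

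Gstp1, the pi class enzyme, which also restrains stress kinase signalling, followed the pattern of Gstm1. Its probe set 1449575_a_at read 574 and 541 units in C57BL/6, 820.4 and 794 units in AKR/N, and 696 and 764 units in MRL/MpJ. The C57BL/6 arrays were the lowest. The difference was 0.52 in AKR/N (SE 0.079, adjusted p = 0.00205 by limma) and 0.38 in MRL/MpJ (adjusted p = 0.0124). The latter call ended without MRL/MpJ replicate 2 (0.31, adjusted p = 0.104) and without C57BL/6 replicate 2 (0.34, adjusted p = 0.0726). Without the variance trend neither was called (0.0646 in AKR/N and 0.127 in MRL/MpJ). Its neighbour Ndufv1, a subunit of respiratory complex I, differed by 0.12 in MRL/MpJ and -0.09 in AKR/N, without a call.

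Mgst1, a transferase and peroxidase of the endoplasmic reticulum and outer mitochondrial membrane, had the same order. Its probe set 1415897_a_at read 802 and 738 units in C57BL/6, 1057 and 1189 units in AKR/N, and 1053 and 1043 units in MRL/MpJ. Again both C57BL/6 arrays lay below the other 4. The difference was 0.53 in AKR/N (SE 0.0797, adjusted p = 0.00187 by limma) and 0.44 in MRL/MpJ (adjusted p = 0.00596), and each kept its call with any 1 array left out. Without the variance trend they had 0.0685 and 0.106. The other probe set, 1415898_at, read 3.92 to 15.7 units and was not tested.

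Gstk1, the kappa enzyme of mitochondria and peroxisomes, was highest in MRL/MpJ. Its probe set 1452823_at read 79.4 and 74.4 units in C57BL/6, 122 and 104 units in AKR/N, and 152 and 148 units in MRL/MpJ, with no overlap. MRL/MpJ had 1.95 times the C57BL/6 signal (0.84, SE 0.127, adjusted p = 0.00203 by limma). AKR/N had 1.47 times that signal (0.47, adjusted p = 0.0421), a call that ended with any 1 of the 6 arrays left out, without the variance trend (0.094), without the filter (0.0707) and with only the arrays compared (0.0737). With 1 array out, the adjusted p was 0.0661 without MRL/MpJ replicate 2, 0.0669 without MRL/MpJ replicate 1, 0.0722 and 0.155 without C57BL/6 replicates 1 and 2, and 0.254 and 0.0781 without AKR/N replicates 1 and 2. MRL/MpJ was not called apart from AKR/N (0.37, interval 0.09 to 0.65, adjusted p = 0.123).

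The omega enzyme Gsto1, which reduces dehydroascorbate, was called higher in MRL/MpJ on 1 of its 2 probe sets. That probe set, 1416531_at, read 64.4 and 49.2 units in C57BL/6, 68.8 and 51.3 units in AKR/N, and 105 and 92.2 units in MRL/MpJ. The difference between MRL/MpJ and C57BL/6 was 0.66 (SE 0.174, adjusted p = 0.0364 by limma). Its call ended when MRL/MpJ replicate 1 (0.196), MRL/MpJ replicate 2 (0.0955) or C57BL/6 replicate 2 (0.176) was left out, without the filter on dim signal (0.0829), without the variance trend (0.107) and as the mean of both probe sets (0.61, adjusted p = 0.0557). AKR/N against C57BL/6 gave 0.06 on that probe set and 0.43 on the second, neither called. MRL/MpJ against AKR/N gave 0.60 on the first (adjusted p = 0.0688, and 0.0318 with the replicate number as a block) and 0.12 on the second. On the second, 1456036_x_at, MRL/MpJ read 73 and 50.1 units against 41.8 and 31 units in C57BL/6. Gsto2, its neighbour and the other omega gene, differed by -0.09 in MRL/MpJ and -0.01 in AKR/N. Itprip, the gene beyond it, was called higher in both strains (0.46 and 0.42, adjusted p = 0.0167 and 0.0283 by limma). In MRL/MpJ that call ended with any MRL/MpJ or C57BL/6 array left out (highest 0.103, MRL/MpJ replicate 1), and in AKR/N with AKR/N replicate 1 (0.221) or either C57BL/6 array left out (0.0868 and 0.103).

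The theta enzyme Gstt1, which acts on small halogenated compounds, was dim and not called. Its probe set 1418186_at read 44.3 and 46.2 units in C57BL/6, 46.1 and 44.5 units in AKR/N, and 56.5 and 54.2 units in MRL/MpJ. Although both MRL/MpJ arrays were the highest, the difference of 0.22 had an interval from -0.14 to 0.58 (adjusted p = 0.455 by limma).

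Counted by probe set, 9 of the 15 tested were called higher in MRL/MpJ than in C57BL/6, beside 5.07% of all probe sets called higher, and 10 of 15 in AKR/N, beside 5.09%. The share of all probe sets called in either direction was 10% and 9.97%. None of the 15 was called lower by limma, against 4.95% and 4.88% of all. MRL/MpJ against AKR/N had 3 called, beside 6.91% of all, 1 higher (3.22%) and 2 lower (3.69%), the latter both of Gsta3. Where a gene had more than 1 tested probe set, no pair was called with opposite signs. Without the variance trend 4 of 15 were called in MRL/MpJ, 3 in AKR/N and 2 in MRL/MpJ against AKR/N. With 1 array left out the counts ranged from 6 to 9, 8 to 9 and 2 to 3.

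**Figure D3:**
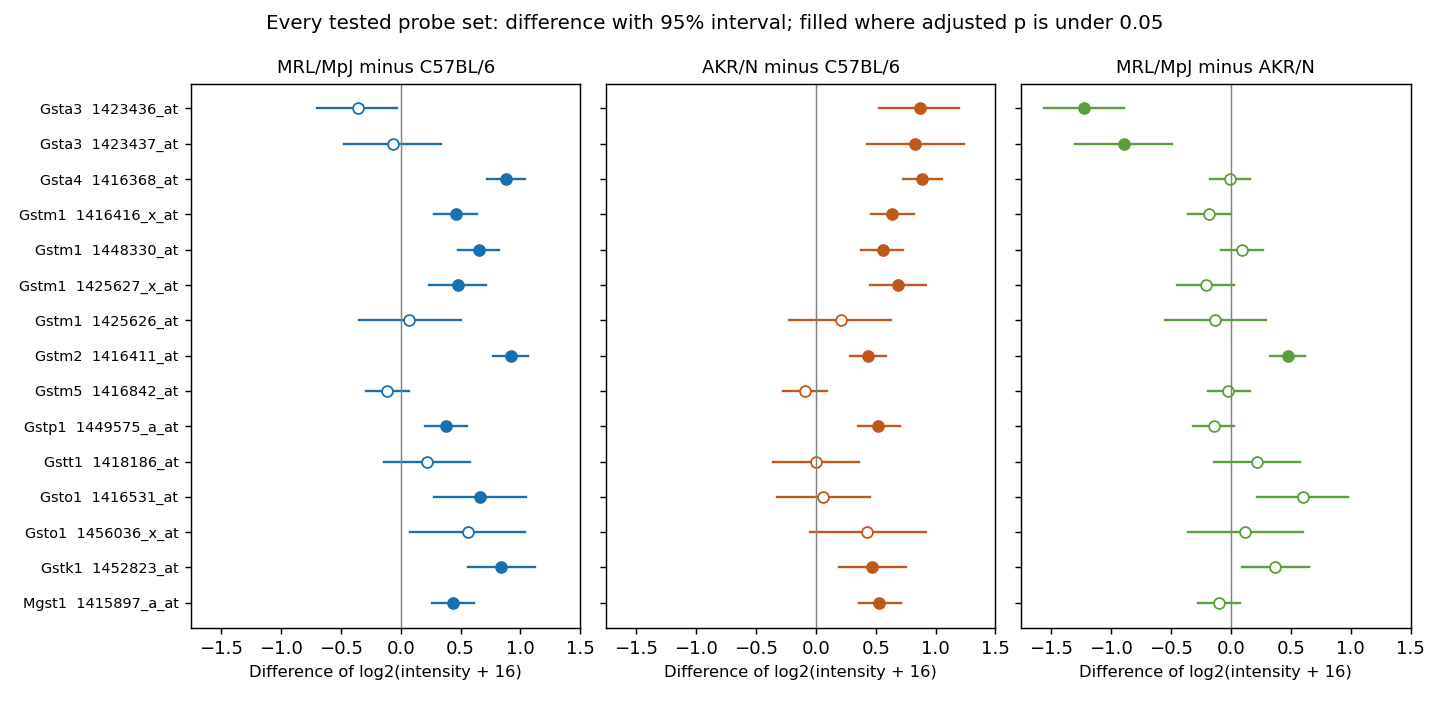
Difference of log2(intensity + 16) between strains for the 15 tested probe sets, with 95% intervals; filled points have an adjusted p under 0.05. In both comparisons with C57BL/6 all filled points lie above 0, and the pairs for Gsta3 and Gsto1 and the brighter 3 for Gstm1 lie on the same side, while the dim Gstm1 probe set lies near 0.

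Over the 6 arrays, the members fell into patterns that can be described by Pearson's r of their log2 values, which the 3 strain means largely set. Mgst1 followed Gstm1 (0.97), Gsta4 (0.96) and Gstp1 (0.94), and Gstk1 followed Gstm2 (0.97). Gsta3 had values between -0.73 and 0.49 with the other 9 members. With so few arrays high values were common: Gsta4 had r over 0.9 with 661 of 14476 genes, the most of any member, and Gstm5 with 129, the fewest. The 3 genes most like Gsta4 were Spdef, Hsd17b3 and Slc7a5 (0.996 to 0.998), and those most like Gstm1 were Focad, Nnt and Tgoln1 (0.995 to 0.999). Gstm2 was nearest to Fam118a, Itm2b and Cox6b1, Gsta3 to Bcl2l14, Mrpl47 and Rffl, Gstp1 to Lgmn, Tuba1a and Nqo2, and Mgst1 to Cyb5r1, Mdh1 and Gm2788. Gstk1 was nearest to Zfp689, Pelo and Ephb1 and Gsto1 to Hemk1, Phospho2 and Letm1. These 18 had values of 0.993 to 0.999.

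The counts of the lists that follow stand beside the shares of all genes tested that were called in either direction. These were 12.1% in MRL/MpJ and 11.8% in AKR/N against C57BL/6, and 8.7% in MRL/MpJ against AKR/N. Of the other 20 tested genes of the wider family, none was called in MRL/MpJ against C57BL/6 by limma (median 0.08), and 6 were at an unadjusted p under 0.05. In AKR/N 3 were called higher (median 0.14): Gstm6, Gstm4 and Ltc4s, the synthase of leukotriene C4, whose 0.82 (adjusted p = 0.0397) lost its call with any array but C57BL/6 replicate 1 left out, up to 0.254 with AKR/N replicate 1 out. Set against AKR/N, MRL/MpJ had 3 lower (median -0.03): Gstm6, the theta gene Gstt4 and Gdap1, a mitochondrial outer membrane protein with transferase-like domains. Gstt4 (-0.31, adjusted p = 0.025 by limma) lost its call with AKR/N replicate 1 (0.114) or 2 (0.171) or MRL/MpJ replicate 1 (0.167) left out. Gdap1 (-0.72, adjusted p = 0.0397) lost it with either AKR/N array (0.26 and 0.094) or either MRL/MpJ array (0.106 and 0.192) left out, and averaged over its 4 probe sets it differed by -0.35 (0.256). The other 3 probe sets gave -0.11, -0.32 and -0.24.

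Among 18 genes of glutathione synthesis and turnover, 2 were higher in MRL/MpJ (median 0.01), and 2 higher and 1 lower in AKR/N (median 0.01). This stands beside 12.1% and 11.8% of all genes called in either direction. Cth, which makes cysteine from cystathionine, read 15.9 and 5.64 units in C57BL/6, 45.4 and 48 in AKR/N, and 61 and 74.1 in MRL/MpJ. It was higher by 1.66 in MRL/MpJ (adjusted p = 0.00104 by limma) and 1.25 in AKR/N (0.00567, and 0.0571 with AKR/N replicate 2 left out). Slc3a2, a chain of the cystine transporter and of other amino acid carriers, was higher by 0.62 and 0.45 (0.000216 and 0.00188). Gclc, the catalytic subunit of the first and rate-limiting step, was lower in AKR/N (-0.59, 0.0115), a call that ended with AKR/N replicate 1 (0.102) or C57BL/6 replicate 2 (0.0918) left out. In MRL/MpJ against AKR/N none was called by limma, with 4 at an unadjusted p under 0.05 and a median of 0.07. Its 2 brightest genes, Dpep3 and Slc3a2, differed there by 0.09 and 0.17.

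Among 14 glutathione peroxidases, glutaredoxins and glyoxalases, 3 were higher and 1 lower in MRL/MpJ (median 0.01) and 6 higher in AKR/N (median 0.34). Glo1, which clears methylglyoxal with glutathione, was higher in MRL/MpJ by 1.00 (adjusted p = 0.000316 by limma) and in AKR/N by 0.55 (0.0125). Gpx6, a peroxidase gene, was higher by 0.61 and 0.64 (0.00333 and 0.00258), and the cytosolic peroxidase Gpx1 by 0.48 and 0.58 (0.0195 and 0.00735). Gpx3, the secreted peroxidase, had the strain order of Gsta3, with 359 and 425 units in AKR/N, 152 and 108 in C57BL/6, and 59.8 and 103 in MRL/MpJ. Its difference in MRL/MpJ against AKR/N was -2.10 (adjusted p = 0.000172 by limma). The mitochondrial glutaredoxin Glrx2 was lower in MRL/MpJ than in C57BL/6 (-0.47, 0.0014). Against AKR/N, MRL/MpJ had Glo1 higher (0.45, 0.0416) and Gpx3 and Glrx2 (-0.35, 0.0116) lower (median -0.09). The latter Glo1 and Glrx2 calls ended with any AKR/N or MRL/MpJ array left out (0.155 to 0.194 and 0.0613 to 0.0983). In AKR/N against C57BL/6, Glo1 lost its call with AKR/N replicate 1 (0.0762) or 2 (0.0788) or C57BL/6 replicate 1 (0.0502) left out and Gpx1 with AKR/N replicate 1 (0.061) or C57BL/6 replicate 2 (0.0633). Gpx1 in MRL/MpJ lost it with MRL/MpJ replicate 2 (0.151) or C57BL/6 replicate 2 (0.117) left out.

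Of 22 genes of the Nrf2 pathway and its known targets, 6 were higher and 2 lower in MRL/MpJ (median 0.28) and 5 higher in AKR/N (median 0.16). Aldh1a1, a retinal dehydrogenase, was higher by 0.83 and 1.54 (adjusted p = 4.67e-05 and 5.2e-07 by limma), and Ephx1, an epoxide hydrolase, by 0.92 and 0.43 (0.000192 and 0.0191). Me1, an enzyme that makes NADPH, was higher in MRL/MpJ by 0.46 (0.00094). Pgd, of the pentose phosphate pathway, was higher by 0.44 and 0.50 (0.0139 and 0.00735). The thioredoxin gene Txn1 was called higher in MRL/MpJ (0.39, 0.0244 by limma) and in AKR/N (0.35, 0.0393). With 1 array left out its MRL/MpJ difference ranged from 0.31 to 0.47, and that call did not always hold. Tkt was called in AKR/N (0.46, 0.0407) and was chosen after its value was seen. As the mean of its probe sets Txn1 differed by 0.22 in MRL/MpJ and 0.05 in AKR/N, without a call. Tkt differed by 0.16 in AKR/N as a mean, also without a call. In MRL/MpJ, Srxn1, whose product repairs peroxiredoxins, was lower (-0.57, 0.00492, but -0.13 as the mean of its probe sets), and so was Mafg (-0.97, 0.0288, but -0.69 with 0.075 as a mean), also chosen after its value was seen. Nfe2l2, the gene of Nrf2, differed by 0.07 in MRL/MpJ and 0.31 in AKR/N, and Nqo1, a standard target, by -0.57 and -0.03, without a call. In MRL/MpJ against AKR/N, Ephx1 (0.49, 0.0135) and Me1 (0.30, 0.0158) were higher and Aldh1a1 (-0.71, 0.000213) and Srxn1 (-0.67, 0.00281, and -0.39 with 0.086 as a mean) lower, with a list median of 0.00.

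Several of these Nrf2 list calls were lost with 1 array left out. Such a loss need not mean that the difference changed. That of Pgd in AKR/N stayed between 0.48 and 0.51, and those of Txn1 and Tkt in AKR/N stayed at 0.35 and 0.46 without an MRL/MpJ array. In AKR/N against C57BL/6, Ephx1 lost its call with AKR/N replicate 2 (0.172) or either C57BL/6 array left out (0.0714 and 0.108), Pgd with either AKR/N array (0.0576 and 0.0539), and Txn1 and Tkt with 5 of the 6 arrays, up to 0.217 and 0.241 with AKR/N replicate 2 out. In MRL/MpJ against C57BL/6, Pgd lost it with either MRL/MpJ array (0.0647 and 0.0953) or C57BL/6 replicate 1 (0.0512) left out, and Mafg with MRL/MpJ replicate 2 (0.162) or either C57BL/6 array (0.111 and 0.101). When MRL/MpJ was set against AKR/N, Ephx1 lost it with AKR/N replicate 1 (0.121) or MRL/MpJ replicate 2 (0.116) left out, and Me1 with either AKR/N array (0.125 and 0.0883) or MRL/MpJ replicate 2 (0.115).

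For export of conjugates and their conversion to mercapturates, 1 of 10 genes was called in each comparison with C57BL/6, and it was lower. That count was near the share of all genes called, 12.1% in MRL/MpJ and 11.8% in AKR/N. Abcc3, a transporter of glutathione and glucuronide conjugates, read 583 and 488 units in C57BL/6, 136 and 125 in AKR/N, and 119.6 and 117 in MRL/MpJ. Its strain pattern was the reverse of that of Gsta4, at -2.04 in MRL/MpJ and -1.91 in AKR/N (adjusted p = 1.81e-06 and 2.64e-06 by limma). The list's medians were -0.16 and -0.02. In MRL/MpJ against AKR/N none was called by limma and 0 were at an unadjusted p under 0.05 (median -0.13), with the 2 brightest, Abcg2 and Abcc1, at -0.18 and -0.08.

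Leydig cell markers were mostly higher in both strains than in C57BL/6, and so were the adipose markers given further on. Of 8 Leydig cell markers tested, 5 were called higher in MRL/MpJ and 4 in AKR/N, none lower by limma or at an unadjusted p under 0.05, with medians of 0.56 and 0.55. With 1 array left out the MRL/MpJ difference of Star ranged from 0.38 to 0.83 and that of Fdx1 from 0.30 to 0.33. Those 2 calls did not always hold. Their summed intensity was 5027 to 5221 units in C57BL/6, 7474 to 7947 in AKR/N and 7668 to 7801 in MRL/MpJ. The brightest probe sets weigh most in such sums: Cyp17a1 alone had means of 1872, 3353 and 3334 units in the same order. Hsd17b3, which makes testosterone, read 178 and 181 units in C57BL/6, 492 and 519.7 in AKR/N, and 474 and 465 in MRL/MpJ, the C57BL/6 arrays being lowest as for Gsta4. Cyp11a1, which starts steroid synthesis, differed by -0.07 in MRL/MpJ and 0.65 in AKR/N (0.23, without a call, as the mean of its probe sets), and Hsd3b1 by 0.79 and -0.04. In MRL/MpJ against AKR/N, Hsd3b1 was called higher (0.84, adjusted p = 0.000927 by limma) and Cyp11a1 lower (-0.72, 0.00106). The part of Leydig cells in the glutathione transferase differences was not tested, and Hsd3b6, Insl3 and Lhcgr were not analysed here.

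Sertoli cell markers had 0 of 12 called in MRL/MpJ by limma, and 0 at an unadjusted p under 0.05 (median 0.09). In AKR/N 4 were higher and 1 lower (median 0.24). The lower one, Kitl, had the largest difference of the list (-1.37, adjusted p = 8.71e-05 by limma). The higher ones were Aard, Wt1, Rhox5 and Ctsl, with differences of 0.23 to 0.54. In MRL/MpJ against AKR/N the Sertoli cell markers had 1 higher and 3 lower (median -0.27). Their summed intensity was 8778 to 8802 units in C57BL/6, 10139 to 10415 in AKR/N and 8732 to 8873 in MRL/MpJ, and Amh, a marker of immature Sertoli cells, was at 1.13 to 3.27 units. Round spermatid markers had 5 of 12 lower in MRL/MpJ (median -0.20), and 0 called in AKR/N by limma or at an unadjusted p under 0.05 (median 0.03). Their summed intensity was 19555 to 20883 units in C57BL/6, 20419.8 to 20859.7 in AKR/N and 17238 to 17698 in MRL/MpJ. Spermatocyte markers moved in both directions: of 12, 3 were higher and 2 lower in MRL/MpJ (median 0.14), 2 higher and 4 lower in AKR/N (median -0.25), and 6 higher in MRL/MpJ against AKR/N (median 0.36). Their summed intensity was 12048 to 12471 units in C57BL/6, 10422 to 11419.5 in AKR/N and 12358 to 12959 in MRL/MpJ. Sycp1, of the synaptonemal complex, differed by -1.10 in AKR/N (adjusted p = 0.000716 by limma) and -0.37 in MRL/MpJ (0.134), and the meiotic cohesin gene Smc1b by -1.09 and -0.60 (0.000458 and 0.0163). Elongating spermatid markers had 3 of 13 lower in MRL/MpJ (median -0.14), 1 higher and 1 lower in AKR/N (median -0.05) and 2 lower in MRL/MpJ against AKR/N (median -0.07), with sums of 76792 to 82243, 72414 to 76470.1 and 67507 to 74007 units in C57BL/6, AKR/N and MRL/MpJ. Adipose markers had 2 of 5 higher in MRL/MpJ (median 0.85) and 3 in AKR/N (median 1.21). Their sums were 275 to 302 units in C57BL/6, 501 to 796 in AKR/N and 433 to 481 in MRL/MpJ, and Lep, the leptin gene, was at 1.43 to 14.4 units. The part of these cells in the differences of the glutathione transferases was not tested. All marker counts stand beside 12.1% of all genes called in MRL/MpJ and 11.8% in AKR/N against C57BL/6. Between MRL/MpJ and AKR/N that share was 8.7%.

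**Figure D4:**
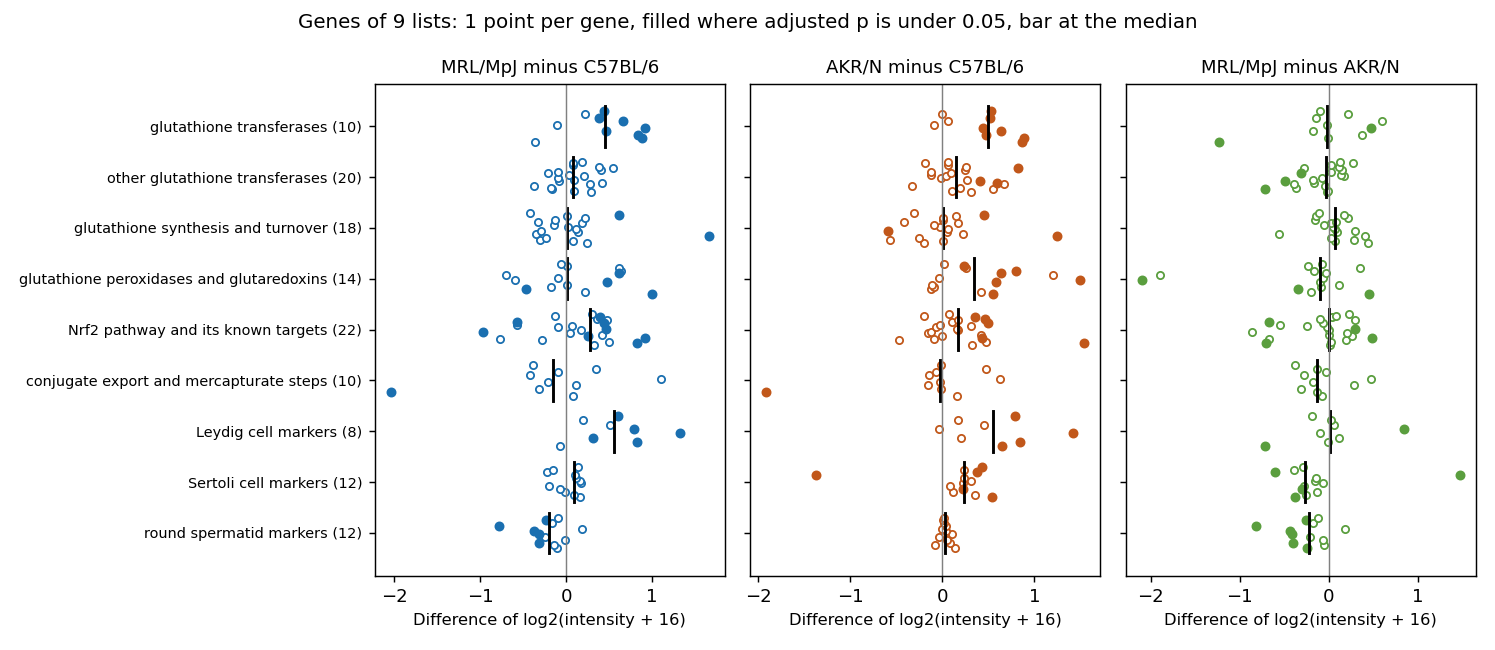
Difference of log2(intensity + 16) for the tested genes of 9 lists in each comparison, with the number of genes in brackets; each point is 1 gene, filled where the adjusted p is under 0.05, and the black bar is the median of the list. The medians of the glutathione transferases (0.45 and 0.50) and of Leydig cell markers (0.56 and 0.55) lie above 0 in both comparisons with C57BL/6 and near 0 between MRL/MpJ and AKR/N. Adipose markers, with larger medians in both comparisons with C57BL/6 (0.85 and 1.21), are not drawn.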

How the data were processed

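Testis RNA of 6 mice, 2 per strain, was hybridised to 1 array each, and the labels name no batch. The p-values rest on the spread between these mice, drawn toward the spread usual for probe sets of like brightness. That borrowed part had more degrees of freedom than the residual spread. The authors deposited linear intensity values per probe set; a mean trimmed by 2% on both sides was equal on all arrays. The summary software is not given in the sources used here. Of 45101 probe sets, 64 controls were left out. The 29692 with at least 2 of 6 arrays above the 40th percentile of their array (17.8 to 20.8 units) were tested on log2(intensity + 16) in R 4.3.3 with limma 3.58.1 (a strain-means model over all 6 arrays, moderated with a variance trend; 3 residual and 7.58 prior degrees of freedom), adjusted by Benjamini-Hochberg. A gene was represented by its tested probe set of highest mean. Symbols came from the platform annotation of 34945 probe sets with 1 symbol (932 had several, 9160 none) and were updated by gene ID; gene order and promoter sequence came from RefSeq, GRCm38.p6. The calculation was tested on simulated data. Figures were drawn with matplotlib 3.10.9.

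The members and lists were chosen with earlier results of these data known. Named genes are the 10 members, up to 4 called genes of smallest adjusted p per list around them and comparison (the 2 brightest where none was called), the 3 genes of highest r for each called member, and the nearest 2 protein-coding RefSeq neighbours on each side. Alternatives were quantile normalization, median centring, no or a 60th percentile filter, a pseudocount of 1 or 64, no variance trend, only the arrays compared, the replicate number as a block, each array left out and the mean of a gene's probe sets.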

Additional observations from a re-analysis of the deposited data

How the results depend on the processing

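All 16 calls of the 10 genes kept their sign under every alternative run. Only quantile normalization, median centring and the mean of several probe sets could have changed a sign. The other settings leave the difference as it is, or cannot turn it because the arrays of the strains compared did not overlap. All 16 were kept under quantile normalization, median centring, a 60th percentile filter and a pseudocount of 1 or 64, 14 without a filter, 15 with only the arrays compared, 15 as the mean of probe sets and 5 without the variance trend. Of 480 values of single genes, 452 stayed on their side of the threshold, 26 lost a call and 2 gained one. The 480 include differences not called in the main fit, so 452 is no measure of how firm the calls were. With 2 arrays per strain, the number of arrays limits the precision throughout, and dim probe sets such as those of Gstt1 have the wider intervals. The causes of these changes were not tested.

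Without the variance trend the member probe sets called fell to 4 in MRL/MpJ against C57BL/6, 3 in AKR/N against C57BL/6 and 2 in MRL/MpJ against AKR/N, and all probe sets called went from 2975, 2960 and 2052 to 1212, 1138 and 421. Without a filter the last was 1327. In the order MRL/MpJ against C57BL/6, AKR/N against C57BL/6 and MRL/MpJ against AKR/N, the counts without the trend were 2, 3 and 1 for peroxidases and glutaredoxins, 2, 1 and 0 for the Nrf2 list and 3, 2 and 0 for Leydig cell markers. For the other glutathione transferases they were 1 in AKR/N against C57BL/6 and 0 in MRL/MpJ against AKR/N, and for glutathione synthesis 1 in AKR/N against C57BL/6. Without a filter the other glutathione transferases had 1 call in each comparison with AKR/N, and the Nrf2 list 2 in AKR/N against C57BL/6. With only the arrays compared the export list had 2 calls in MRL/MpJ and the Nrf2 list 3 in AKR/N, both against C57BL/6. As the mean of probe sets glutathione synthesis had 1 in MRL/MpJ against AKR/N, and Cfap43, a neighbour of Gsto1, changed sign: it gave 0.16 in place of -0.53 in AKR/N against C57BL/6 and -0.12 in place of 0.48 in MRL/MpJ against AKR/N.

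With 1 array left out, in the same order of comparisons, all probe sets called ranged from 1463 to 2538, 1270 to 2607 and 657 to 2173, and member probe sets from 6 to 9, 8 to 9 and 2 to 3. Leydig cell markers ranged from 3 to 5, 3 to 5 and 2 to 2, the Nrf2 list from 4 to 7, 1 to 4 and 2 to 4, peroxidases from 3 to 5, 2 to 4 and 1 to 3, the other glutathione transferases from 0 to 1, 0 to 2 and 0 to 3, export from 1 to 2, 1 to 1 and 0 to 0, and glutathione synthesis from 2 to 2, 2 to 3 and 0 to 0. Median centring gave 1820 higher and 1183 lower probe sets, against 1504 and 1471, in MRL/MpJ against C57BL/6, and 1725 and 1137, against 1510 and 1450, in AKR/N.

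Replicate numbers are shared by the strains, and the deviations of same-numbered arrays correlated at 0.043 to 0.049. No pairing was assumed, but such a correlation cannot exclude that same-numbered arrays were processed together. With the replicate number as a block, 9, 10 and 4 member probe sets were called, in place of 9, 10 and 3. Of all probe sets 3510, 3492 and 2549 were called, in place of 2975, 2960 and 2052.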
